A study of Danio rerio with 6 samples.

Results

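The 7 genes described here are transcription factors of muscle formation: the 4 myogenic regulatory factors myf5, myod1, myog and myf6, and the Mef2 factors mef2aa, mef2ca and mef2d. They were chosen by gene symbol in the platform annotation of the array, which gave 9 probe sets among 15502 that are not array controls, and 7 genes among 8793 with a symbol. RNA came from whole zebrafish embryos of the Tu strain at 24 hours after fertilization. From 50% epiboly, a stage of gastrulation, the embryos had been kept either in leflunomide at 6.5 uM or in its solvent DMSO, with 3 Affymetrix arrays in each group. Leflunomide, used in people against rheumatoid arthritis, blocks the making of pyrimidines at dihydroorotate dehydrogenase. The labels name no transgene or mutation. They do not say whether embryos were pooled or clutches were kept apart, so the p-values rest on the scatter of these arrays alone, part of which may be technical. In whole embryos, fewer muscle cells and less RNA per muscle cell cannot be told apart.

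Myogenic regulatory factors are basic helix-loop-helix proteins that bind DNA at E-box motifs as dimers with E proteins. In vertebrate embryos myf5 and myod1 commit cells of the paraxial mesoderm to the muscle lineage. myog and myf6 act later, when committed myoblasts leave the cell cycle and make contractile proteins. Mef2 proteins belong to the MADS-box family, bind AT-rich sites in muscle genes and act together with the helix-loop-helix factors; they also work in heart, neurons, vessels and the pharyngeal arches. The comparison asked whether the early factors, myf5 and myod1, responded to the drug differently from the late ones. The Mef2 genes were placed with the late factors by the grouping chosen for this comparison. When each gene is first expressed was not measured here.

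The early factors did not move together. myf5 rose after leflunomide, and myod1 fell. Among the late factors myog and mef2ca fell most, mef2d fell at 1 of its 2 probe sets and mef2aa did not pass the test. myf6 showed almost no difference, at a probe set of uncertain, possibly low level. Of 9 member probe sets, 8 reached the level at which a probe set was tested (a recovered log2 level of at least 4), and all 7 genes had at least 1 of these. In limma, at a Benjamini-Hochberg adjusted p under 0.05, 5 of these 8 were called, where 20.9% of all 12760 tested probe sets were. Of the 5, 1 was higher, where 9.90% of tested probe sets were, and 4 were lower, where 11.0% were. The median log2 difference of the 7 genes, with 1 probe set each, was -0.60, beside 0.05 over all 7863 tested genes.

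Base 2 of the log scale was assumed from the use of GCRMA, so every fold rests on that. Every value below is a log2 value relative to the median of that probe set over the 6 arrays, so the arrays in the middle of a probe set's order have equal values of opposite sign, and levels cannot be compared between genes. Differences are leflunomide minus DMSO.

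**Figure D1:**
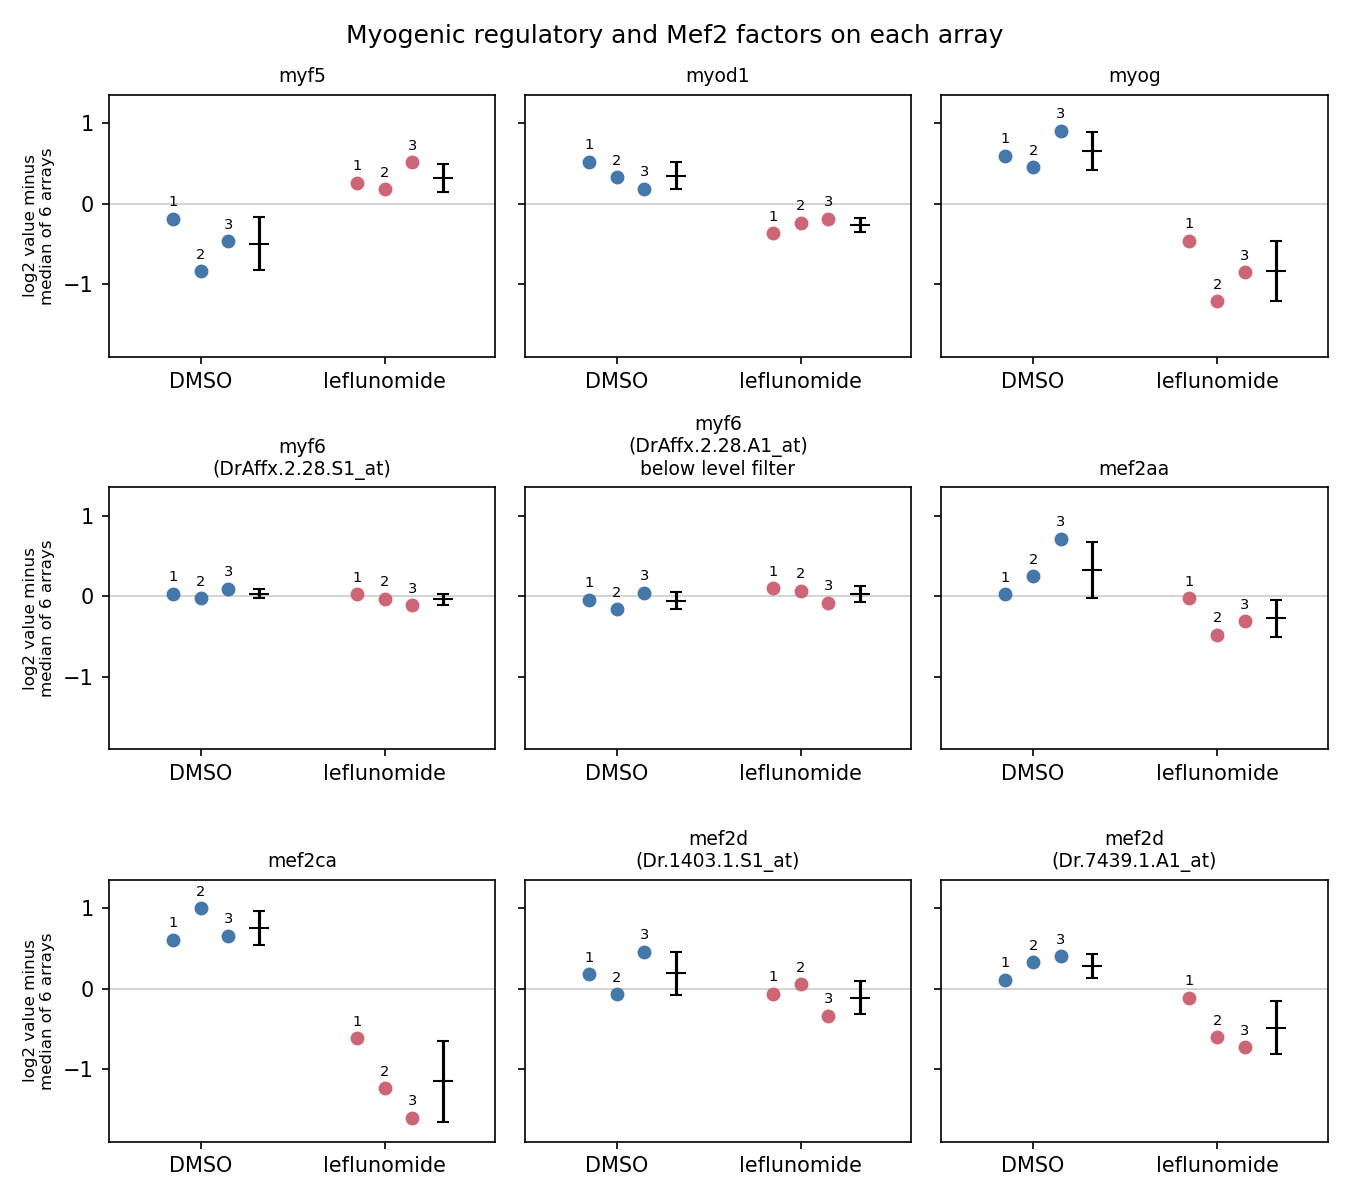
Log2 value of each of the 9 member probe sets (vertical axis, relative to the median of the 6 arrays) on the DMSO arrays (blue) and the leflunomide arrays (red), each point labelled with its replicate number; black marks are the mean and SD of 3 arrays. The leflunomide points lie above the DMSO points for myf5 and below them for myod1, myog, mef2aa, mef2ca and one mef2d probe set.

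myf5 encodes the factor that appears first in the paraxial mesoderm of the zebrafish, in the unsegmented tissue as well as in young somites. Its values were -0.18, -0.84 and -0.46 on DMSO arrays 1 to 3 and 0.26, 0.18 and 0.52 on leflunomide arrays 1 to 3. All 3 leflunomide arrays lay above all DMSO arrays, and DMSO array 2 was the lowest. The mean rose from -0.49 ± 0.33 to 0.32 ± 0.17 (SD, n = 3 each), a log2 difference of 0.81 (SE 0.18, 1.76-fold, 95% interval 1.32 to 2.35, limma adjusted p = 0.0190). Of all tested probe sets, 2.3% had a higher difference. The probability that its level was at least 4 was 0.895, so it is not certain that the only member that rose reached the level filter. The call was lost without DMSO array 2 (log2 difference 0.64, limma adjusted p = 0.0538) and without DMSO array 3 (0.83, adjusted p = 0.0671).

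myod1, the second determination factor, is first transcribed in zebrafish in the adaxial cells beside the notochord, which become slow muscle, and then through the somite. Its values were 0.52, 0.33 and 0.19 in DMSO and -0.36, -0.23 and -0.19 after leflunomide. The groups did not overlap, and the leflunomide arrays lay close together. The log2 value of myod1 fell by 0.61 (SE 0.12, 1.53-fold, 95% interval 1.26 to 1.85, limma adjusted p = 0.0129), from 0.35 ± 0.17 to -0.26 ± 0.09 (SD, n = 3 each). Of all tested probe sets, 8.4% had a lower difference. Without DMSO array 1 the difference was -0.52 and the limma adjusted p was 0.0504, so the call was lost.

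On the same array, the value of myf5 minus that of myod1 was -0.70, -1.17 and -0.65 in DMSO and 0.62, 0.42 and 0.71 after leflunomide. It shifted by 1.42 (2.68-fold). Since myf5 was higher and myod1 lower on every leflunomide array, the groups of this difference could not overlap, and it is given as a description without a test.

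myog encodes myogenin, the factor that starts terminal differentiation of myoblasts. Its values were 0.59, 0.46 and 0.91 in DMSO and -0.46, -1.21 and -0.85 after leflunomide. The groups were clearly separate, with leflunomide array 1 nearest to the DMSO arrays. myog fell by 1.49 (SE 0.20, 2.81-fold, 95% interval 2.02 to 3.91, limma adjusted p = 0.00362), from 0.65 ± 0.23 to -0.84 ± 0.38 (SD, n = 3 each). Only 1.6% of tested probe sets had a lower difference. It was called in all 6 fits that left out 1 array, with differences from -1.68 to -1.31 and limma adjusted p from 0.00115 to 0.0234.

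myf6, also known as Mrf4, is the other late helix-loop-helix factor and lies next to myf5 in the RefSeq annotation of the assembly GRCz12tu, with no protein-coding gene between them in start order. At the tested probe set, DrAffx.2.28.S1_at, its values were 0.03, -0.02 and 0.09 in DMSO and 0.02, -0.03 and -0.11 after leflunomide. At the other, DrAffx.2.28.A1_at, they were -0.04, -0.16 and 0.04 in DMSO and 0.10, 0.07 and -0.08 after leflunomide. The groups overlapped at both probe sets. The difference at the tested probe set was -0.07 (SE 0.10, 95% interval -0.30 to 0.15, limma adjusted p = 0.648). The untested probe set had a difference of 0.08 (95% interval -0.15 to 0.32) in the fit without a level filter. The untested one had a level of 2 to 4, the lowest band found. The level of the tested one was uncertain, with a probability of 0.561 of at least 4. A change of myf6 may therefore have been missed, and these values do not show that it was absent. The pair of neighbours held the 1 member that rose and the 1 with the smallest measured difference, the latter at this uncertain level. On the other side of myf5 in the annotation lay lin7a, with a log2 difference of -1.14 (SE 0.24, adjusted p = 0.0152).

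Of the Mef2 genes, mef2ca encodes a factor that, in zebrafish, is needed with mef2d for the assembly of thick filaments in fast muscle fibres and acts in the pharyngeal arches. Its values were 0.61, 1.00 and 0.66 in DMSO and -0.61, -1.23 and -1.60 after leflunomide. This was the widest gap between groups among the members, and leflunomide array 3 was the lowest. mef2ca fell by 1.91 (SE 0.24, 3.75-fold, 95% interval 2.53 to 5.56, limma adjusted p = 0.00281), from 0.76 ± 0.21 to -1.15 ± 0.50 (SD, n = 3 each). Its difference ranked 104th from the lowest of 12760. It was called in all 6 fits that left out 1 array, with differences from -2.18 to -1.68 and limma adjusted p up to 0.0204.

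mef2d, in zebrafish, is expressed early in adaxial cells, but was counted here with the late factors. It was measured by 2 probe sets that differed in size. At the probe set ending in A1_at the values were 0.11, 0.33 and 0.40 in DMSO and -0.11, -0.60 and -0.73 after leflunomide, with no overlap between groups. mef2d fell there by 0.76 (SE 0.17, 1.70-fold, 95% interval 1.28 to 2.25, limma adjusted p = 0.0217). That call was lost without DMSO array 2 (adjusted p = 0.0742 in limma), without DMSO array 3 (adjusted p = 0.0862) and without leflunomide array 2 (adjusted p = 0.0668). At the probe set ending in S1_at, which stands for the gene in the counts of genes, the values were 0.18, -0.07 and 0.46 in DMSO and -0.06, 0.06 and -0.34 after leflunomide. The groups overlapped there, and the difference of -0.30 (95% interval -0.69 to 0.08) did not pass (limma adjusted p = 0.236). The value of the first probe set minus that of the second shifted by -0.46 between groups, with overlapping groups and an exact two-sided permutation p of 0.30. The second probe set had a probability of 0.762 of a level of at least 4.

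mef2aa, the third Mef2 gene, had values of 0.03, 0.25 and 0.71 in DMSO and -0.03, -0.48 and -0.31 after leflunomide. The groups did not overlap, but DMSO array 1 and leflunomide array 1 nearly met. The difference was -0.60 (SE 0.20, 95% interval -1.06 to -0.14), close to that of myod1, and did not pass (unadjusted p = 0.0164, limma adjusted p = 0.0668). The DMSO arrays of mef2aa had an SD of 0.35, and those of myod1 had an SD of 0.17. Without leflunomide array 1 mef2aa passed (difference -0.72, limma adjusted p = 0.0458). In all, the groups did not overlap at 6 of the 8 tested member probe sets, where 41.0% of all tested probe sets had such groups. At 1 of these, myf5, the leflunomide arrays were higher, as at 22.4% of tested probe sets, and at 5 they were lower, as at 18.6%.

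**Figure D2:**
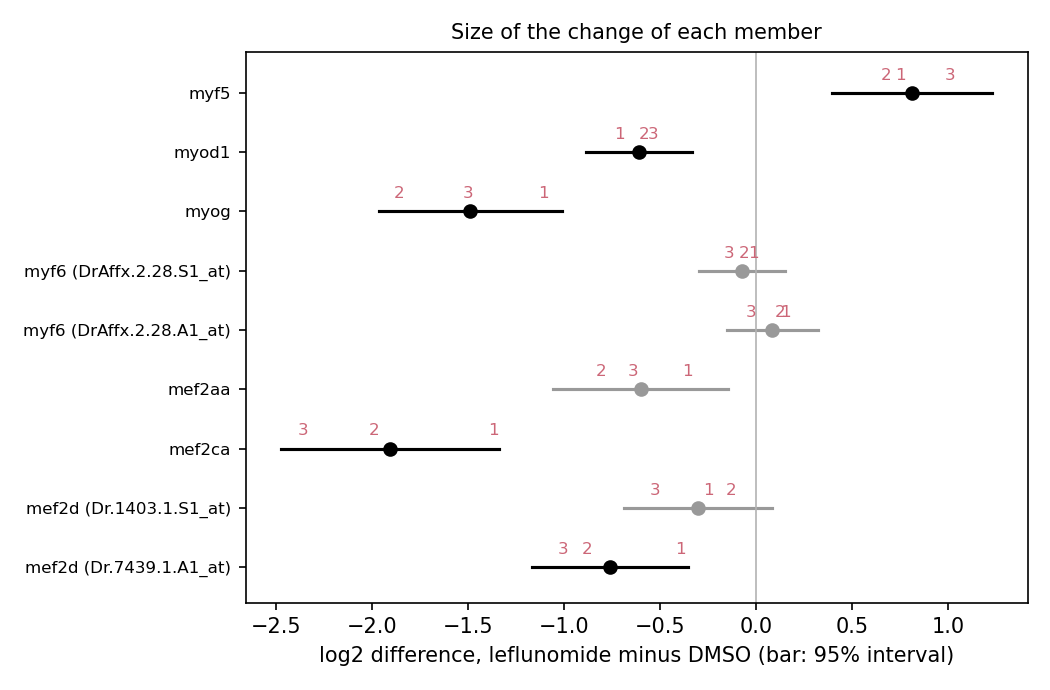
Log2 difference, leflunomide minus DMSO (horizontal axis), of each member probe set with its 95% interval from limma; black marks passed an adjusted p under 0.05 and grey marks did not, and red numerals place each leflunomide array against the DMSO mean. The changes run from -1.91 for mef2ca to 0.81 for myf5, and leflunomide array 1 shows the smallest fall of myog, mef2aa and mef2ca.

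The leflunomide arrays differed in how far the members had moved. Against the DMSO mean, myog changed by -1.11, -1.86 and -1.50 on leflunomide arrays 1 to 3. mef2ca changed by -1.37, -1.99 and -2.36, and mef2aa by -0.36, -0.81 and -0.64. Array 1 thus had the smallest fall of these 3 genes, and also of mef2d at its probe set ending in A1_at, with -0.39 against -0.88 and -1.01. At the other mef2d probe set the changes were -0.25, -0.13 and -0.53, with the smallest on array 2. The early factors also had another order. myod1 changed by -0.71 on array 1, its largest fall, and by -0.58 and -0.53 on arrays 2 and 3. For myf5 the rise was 0.75, 0.68 and 1.01, with array 3 the highest. Over all tested probe sets array 1 also lay nearest to DMSO, at 14.6 on the main component of variation, against 37.6 and 36.2 for arrays 2 and 3 and -30.3 to -28.7 for the DMSO arrays. Without leflunomide array 1, 1 member probe set was higher and 5 were lower in limma. In that fit 1396 of all 12760 tested probe sets were higher and 1476 lower. Leflunomide array 3 stood apart in the 7 sets of bacterial spike-in controls for dap, lys, phe and thr, whose 3' minus 5' differences ran there from 0.44 to 2.00, against -0.58 to 0.22 in DMSO and -0.71 to 0.15 on leflunomide arrays 1 and 2. All 5 called member probe sets also passed without leflunomide array 3.

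The early and late factors were then set against each other on the same array. For each of 10 pairs, the value of the late gene was subtracted from that of the early gene, with 1 probe set a gene. The 2 pairs with myf6 mostly repeat the early gene's own difference, since the tested myf6 probe set differed by only -0.07. Its level was also uncertain and possibly low. Leaving these out, the leflunomide arrays lay above the DMSO arrays in all 4 pairs with myf5. For myog, mef2aa and mef2ca this was already fixed by the single values, as myf5 was higher and each of these lower on every leflunomide array. The shift was 2.30 against myog (4.94-fold), from -1.15 ± 0.32 in DMSO to 1.16 ± 0.38 after leflunomide (SD, n = 3 each). It was 2.72 against mef2ca (6.59-fold), 1.41 against mef2aa and 1.12 against mef2d. myod1 gave another picture. It rose relative to myog by 0.88 (1.84-fold), from -0.07, -0.13 and -0.72 in DMSO to 0.09, 0.97 and 0.66, and relative to mef2ca by 1.3 (2.46-fold). Against mef2aa the shift was -0.01, from 0.02 ± 0.51 to 0.01 ± 0.31, and against mef2d it was -0.31, both with overlapping groups. The mef2d pairs use the probe set ending in S1_at, which was not called. With the mean over the probe sets of a gene, the shift of myod1 against mef2d was -0.077. At the called probe set ending in A1_at, mef2d fell by 0.76, more than myod1, which fell by 0.61. The sign of the shift of myod1 against mef2d therefore depends on the probe set. The pairs with myf6 shifted by 0.89 for myf5 and by -0.54 for myod1, beside 0.81 and -0.61 for the early genes alone. In the exact two-sided permutation test, the 8 of 10 pairs without overlap, or 6 of 8 without myf6, had p = 0.10, the smallest that 3 arrays against 3 can give, and 0.125 after Benjamini-Hochberg adjustment over the 10 pairs, so no pair could pass 0.05. Of the 8 pairs without overlap, 7 were higher after leflunomide and 1, myod1 minus myf6, was lower. Among all pairs of tested genes 45.0% had groups that did not overlap. The 10 pairs share 2 early genes, and those with myf5 all rest on its rise, so these counts are not of independent results. For the myf5 pairs with myog, mef2aa and mef2ca, fixed by the single values, the p-value adds nothing to the single genes.

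**Figure D3:**
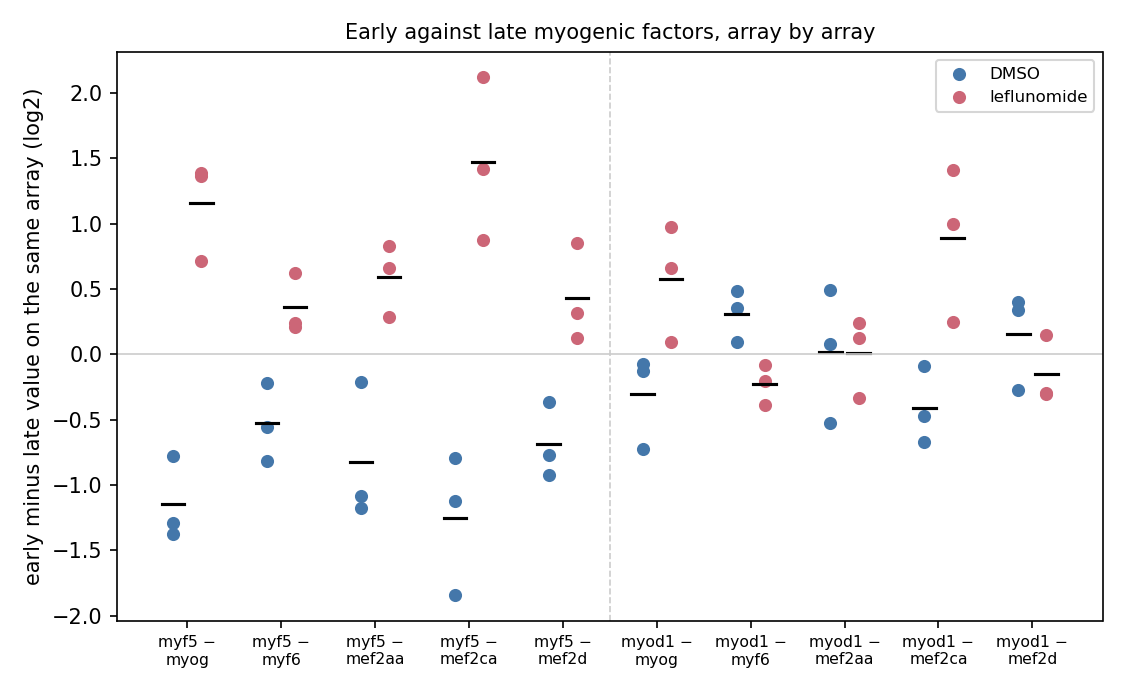
Value of an early gene minus value of a late gene on the same array (vertical axis, log2) for the 10 pairs, with DMSO arrays in blue, leflunomide arrays in red and the group means as black lines. The pairs with myf5, left of the dashed line, lie higher after leflunomide. Those of myod1 shift by 0.88 against myog, 1.3 against mef2ca and -0.01 against mef2aa. The pairs with myf6 rest on a probe set of uncertain, possibly low level.

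The genes most like each member were sought among 7862 other genes with a tested probe set, by the root mean square distance between the values on the 6 arrays, each taken from its own DMSO mean. This is a description over 6 arrays in which the size of the group difference weighs most. Nearest to myf5 were ephx1, an epoxide hydrolase gene (distance 0.09, log2 difference 0.86), cox4i2, of respiratory complex IV (0.09, 0.75), and mespaa, a helix-loop-helix factor of segmenting mesoderm (0.11, 0.77). Nearest to mef2ca were ldb3b, which encodes a Z-disc protein (distance 0.11, log2 difference -1.91), desma, which encodes the muscle intermediate filament desmin (0.12, -1.92), and aldoab, an aldolase gene (0.15, -1.98). For myog they were the enolase gene eno1a (distance 0.10, log2 difference -1.46), igfbp1a, whose product binds insulin-like growth factors (0.11, -1.43), and lmo7b (0.12, -1.38). Those of myod1 were kansl3, mrpl17 and rai14, with distances of 0.07 to 0.08 and log2 differences from -0.62 to -0.54. mef2aa lay nearest to atp2a1l (0.09), ggctb (0.12) and vdac3 (0.12), which, unlike mef2aa, passed the test with differences of -0.62 to -0.56. The neighbours of mef2d, phex, nabp1a and troap, and those of myf6, uqcrfs1, rps10 and zgc:172295, had no called difference.

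The genes around these factors were read from lists of textbook members, chosen with earlier results of these data known. Among the regulators that act upstream in somites and premyogenic cells, 3 of 13 tested genes rose and 1 fell, where 10.6% and 11.3% of all tested genes did. tbx16, a T-box factor of the tail bud and unsegmented mesoderm, rose by 1.71 (SE 0.21, limma adjusted p = 0.00242), from -0.63, -1.41 and -0.72 in DMSO to 0.82, 0.94 and 0.63. Its other probe set had a difference of 0.87 (limma adjusted p = 0.0253). mespaa rose by 0.77 (SE 0.13), and tbx6 by 0.80 (SE 0.22), but tbx6 passed in none of the 6 fits that left out an array. As with myf5, DMSO array 2 was the lowest for these 3 genes. eya1, a transcriptional cofactor of premyogenic cells, fell by 1.47 (SE 0.13, limma adjusted p = 0.000956). The part of unsegmented mesoderm in the rise of myf5 was not tested. pax7a had a difference of -0.07, and pax3a was below the level filter.

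The E protein genes measured, tcf3a and tcf12, had differences of -0.14 and -0.33, and neither passed. In the list of inhibitors of myogenic factors 5 of 16 tested genes fell, where 11.3% of all tested genes did, and 1 rose, where 10.6% did. Of the 5, id4 passed in 1 of the 6 fits that left out an array. twist1a, which can block the dimers of myogenic factors, fell by 1.29 (SE 0.10), and twist3 by 1.04 (SE 0.15). id1 and id3, whose products bind E proteins and keep them from DNA, fell by 1.1 (SE 0.13) and 0.72 (SE 0.11), with limma adjusted p = 0.00238 and 0.00499. The 1 inhibitor that rose was snai1a (0.80, SE 0.13), named after its value was seen. The myostatin gene mstnb had a difference of -0.01. Of 8 coactivators and Mef2 regulators, 1 was called, a share near the 11.3% of all tested genes that fell. It was cdkn1ca, a cell cycle inhibitor of differentiating muscle, at -0.41, and it passed in 1 of the 6 fits that left out an array. ccnd1, a cyclin of proliferating cells, had a difference of 0.01 at the probe set that stood for it and of -0.76 at another (limma adjusted p = 0.00344).

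Among genes that the myogenic factors activate, 30 of 30 tested contractile and metabolic genes fell, out of 50 listed, where 11.3% of all tested genes did. Their median difference was -1.92, close to the difference of mef2ca and lower than that of myog. Median changes were -1.51, -1.96 and -2.28 on leflunomide arrays 1 to 3, so array 1 had the smallest fall, as for myog and mef2ca. The count uses 1 probe set a gene. It is a description, since the list was chosen with earlier results of these data known. Other probe sets of actc1b had differences of 0.62, which did not pass (limma adjusted p = 0.164), and -1.36, which passed. Those of mylpfa and tnni2a.4 had -4.46 and -5.85, which passed. eno3 passed in 2 and actc1a in 5 of the 6 fits that left out an array. actc1b, actc1a, mylpfa and eno3 were named after their values were seen. desma fell by 1.92 (SE 0.22), from 0.69, 0.83 and 0.83 in DMSO to -0.69, -1.12 and -1.62. tnnt3a, a fast troponin T gene next to myod1 in the annotation, fell by 3.60 (SE 0.23). Of 4 tested genes of the acetylcholine receptor and the neuromuscular junction, 2 fell, where 11.3% of all tested genes did. These were chrne, by 2.02 (SE 0.28), and chrna1, by 0.85 (SE 0.16), both receptor subunits. musk and rapsn, which cluster the receptor, had differences of 0.03 and -0.26. In the fusion and adhesion list 3 of 8 fell, beside 11.3% of all tested genes. They were cdh15, cav3 and jam2a, by 1.55, 0.84 and 0.80, with jam2a passing in 1 of those 6 fits. In the slow muscle list 3 of 5 fell, beside 11.3% of all tested genes. Only 1 was lower without any 1 of the DMSO arrays or without leflunomide array 2. prox1a, a factor of slow fibres, fell by 1.28 (SE 0.18), and cdon and boc, Hedgehog coreceptors, by 1.03 and 0.58, where cdon passed in 2 and boc in 1 of those 6 fits. Other probe sets of cdon had differences of -0.80, which passed, and -0.23, which did not, and the other probe set of boc had -0.77, which passed. smyhc1, the slow myosin heavy chain of adaxial cells, had values of -0.04, 0.04 and 0.04 in DMSO and 0.07, -0.45 and -0.81 after leflunomide, and its difference of -0.41 did not pass (limma adjusted p = 0.200).

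**Figure D4:**
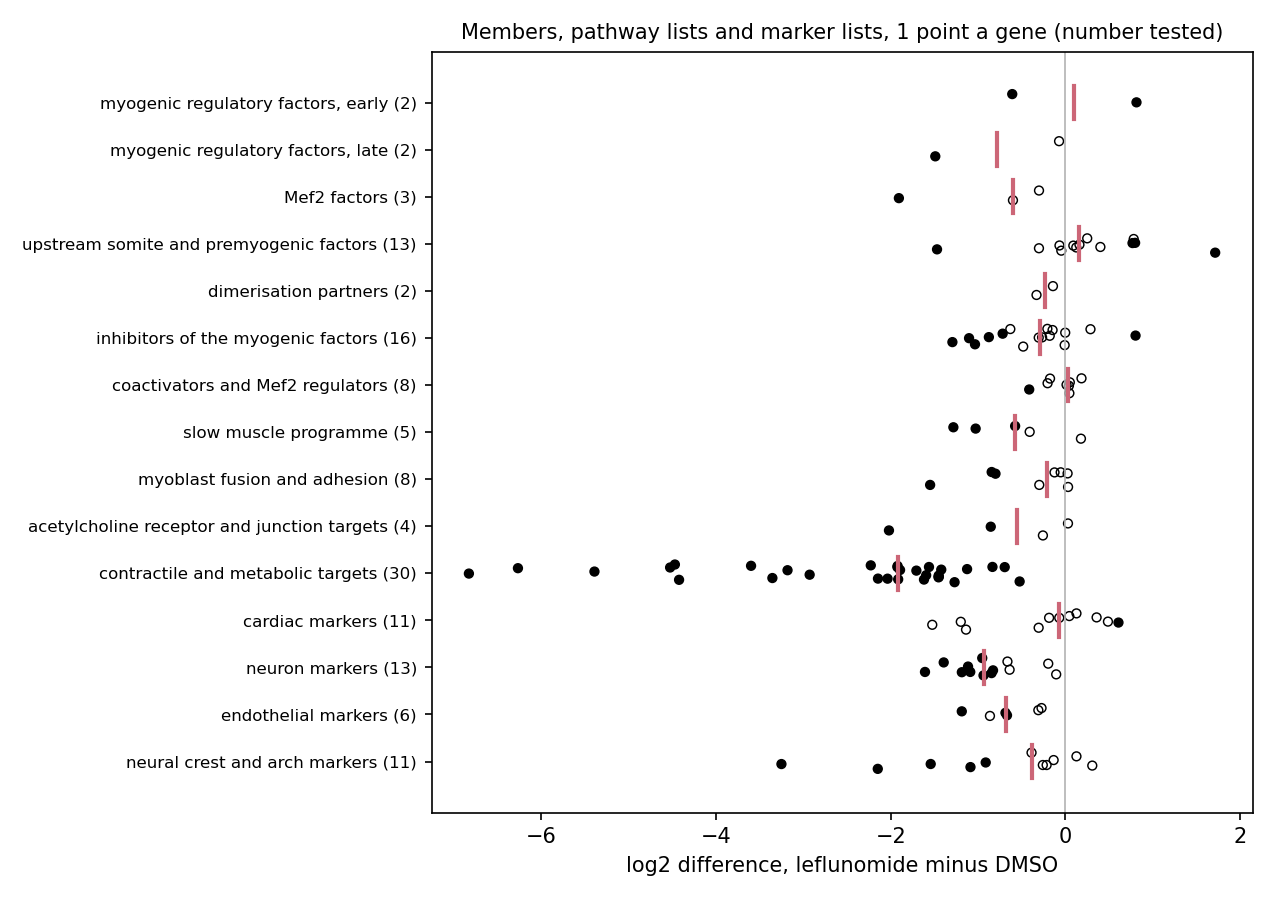
Log2 difference, leflunomide minus DMSO (horizontal axis), of each tested gene of the member classes, pathway lists and marker lists, 1 point a gene, with filled points for an adjusted p under 0.05 and a red bar at the list's median; the number tested is in brackets. The contractile genes, with a median of -1.92, lie lowest, and the somite and premyogenic list has a median of 0.16.

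Other tissues in which Mef2 genes act moved as follows. Of 11 tested cardiac markers, 1 rose, a share near the 10.6% of all tested genes that rose, and 10 did not pass in limma. The 1 that rose, nkx2.7, passed in 2 of the 6 fits that left out an array. Without leflunomide array 1, 2 cardiac markers were higher and 3 lower. In that fit 1396 of all 12760 tested probe sets were higher and 1476 lower. myl7, a cardiac myosin light chain gene named after its values were seen, had 0.24, -1.38 and -2.12 on leflunomide arrays 1 to 3 and -0.01, 0.15 and 0.01 in DMSO. The mean value of the list ran from -0.04 to 0.03 over the DMSO arrays and from -0.62 to 0.16 over the leflunomide arrays. Of 13 neuron markers, 9 fell, where 11.3% of all tested genes did, and 4 did not pass. Their list means were 0.24 to 0.36 in DMSO and -0.81 to -0.18 after leflunomide. Among 6 endothelial markers 3 fell, where 11.3% of all tested genes did, but 1 was lower without DMSO array 1 or DMSO array 2 and 0 were without DMSO array 3 in limma. The endothelial markers had list means of 0.22 to 0.31 in DMSO and -0.71 to -0.12 after leflunomide. Among 11 neural crest and arch markers 5 fell, where 11.3% of all tested genes did. List means were 0.29 to 0.41 in DMSO and -0.69 to -0.29 after leflunomide. Of the 5, crestin, foxd3, sox10 and mitfa, genes of neural crest and its pigment cells, passed in all 6 fits that left out an array. The other, dlx2a, passed in 1 of them. The 6 that did not pass were dlx3b, dlx4a, dlx5a, dlx6a, edn1 and hand2, with differences from -0.39 to 0.31. dlx2a and these 6 were named after their values were seen. Markers at 0 cannot be read from centred values. The part of these tissues in the differences of mef2aa, mef2ca and mef2d was not tested. The 3' minus 5' difference of the acta1 control, a muscle transcript, was higher by 1.24 after leflunomide, and that of the gapdh control was lower, by -0.66. Their part in the falls of muscle genes was not tested.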

How the data were processed

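Total RNA was hybridised to 6 arrays. GCRMA, named in the submitters' processing notes without a version, gave the deposited values, taken as log2. They are centred: every probe set has a median of 0 over the arrays within 5e-07, a step no source used here states. The log base is not stated in the sources used here; base 2, that of GCRMA, was assumed, and every fold rests on it.

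Before centring, a value's rounding step as a single-precision number doubles at levels of 4 and 8, and this step gave a coarse level. The band with the highest probability was taken, with the frequencies of bands estimated from all probe sets. Of 15502 non-control probe sets 2742 lay below 4 and 12760 were tested. For 670 the probability of a level of at least 4 was between 0.1 and 0.9. The platform annotation named 1 gene for 10795 probe sets. Where a gene had several probe sets, the one in the highest band stood for it, with ties settled by suffix and then by ID.

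limma 3.58.1 in R 4.3.3 (lmFit, eBayes) was fitted over all tested probe sets, two-sided, with Benjamini-Hochberg adjustment. It was tested on simulated data for this comparison, with 12760 probe sets of which 50 were changed by each size. The fit recovered 30% of changes of 0.5, 72% of changes of 1, 92% of changes of 2 and 100% of changes of 4. There were 6 false calls. The simulation had independent noise and changed a far smaller share of probe sets than the 20.9% called in the data. Its rates therefore do not carry over to the real comparison. Members, lists and tests were chosen with earlier results of these data known. Named genes are the members, the 3 nearest genes of each member and a fixed set of others. Each list adds up to 4 called genes of lowest adjusted p, and up to 2 of highest that did not pass. Also named, outside this rule, were id4 and the annotation neighbours lin7a and tnnt3a. Other exceptions are marked. For mef2ab, mef2b and mef2cb no probe set was found among those for which the annotation named 1 gene, so they were not analysed here. Sequences were not analysed either. Arrays give no counts, so their number limits the precision. The labels name no batch, so the replicate numbers were not used as pairs. Same-numbered arrays of the 2 groups had deviations that correlated at 0.33, 0.19 and 0.07, above the -0.23 to 0.05 of arrays with different numbers. A fit with the replicate number as a block is given below.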

Additional observations from a re-analysis of the deposited data

How the results depend on the processing

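Of 121 fits of a member probe set under another setting, 108 kept both direction and side of the threshold, 12 kept the direction but no longer passed, 1 newly passed and none reversed. The 108 include 14 fits of mef2aa, 15 of myf6 and 15 of mef2d at S1_at. These were not called in the main fit, so staying uncalled counted as kept. The 12 were 4 of myf5, 3 of myod1 and 5 of mef2d at A1_at. Settings that change only the threshold, adjustment, variance or filter leave the difference as it was and could not reverse it. myog and mef2ca kept their calls in every setting tried, except that only mef2ca was tested at a level of at least 8. At that level 639 probe sets were higher and 466 lower, with 0 members higher and 1 lower, and 1 gene of the pathway lists was higher, since fewer probe sets were tested. At an adjusted p under 0.01, 296 probe sets were higher and 588 lower, and with Benjamini-Yekutieli adjustment 146 and 352. Under each of these 2 settings 0 member probe sets were higher and 2 were lower. Leaving out 1 array gave 430 to 1396 higher and 735 to 1476 lower, with 0 to 1 members higher and 3 to 5 lower. Without DMSO arrays 1, 2 and 3 and leflunomide array 2, respectively, 549, 530, 430 and 645 probe sets were higher and 782, 736, 735 and 853 lower. The 1 member that rose, myf5, was lost without DMSO array 2 or 3. With the replicate block 1273 probe sets were higher and 1332 lower, and the block changed no call of a member. Every array correlated best with its own number, which is a hint from the data and not from the design. Of the 10 early and late pairs, 8 had groups without overlap, 7 higher after leflunomide and 1, myod1 minus myf6, lower. Among the 8 that do not hold myf6, 6 had such groups. In all alternatives run, 8 to 9 of the 10 had groups without overlap in either direction. Most of these alternatives could not lower the count. Leaving out an array cannot make separate groups overlap. Aligning medians or 75th percentiles, or adding the block, leaves the order of the same-array differences as it was. Only quantile normalization and the mean over the probe sets of a gene could lower the count, and each gave 8. Aligning the arrays' medians, 75th percentiles or quantiles changed no member call. The recovered level was uncertain for myf5, for myf6 and for 1 mef2d probe set.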
